A study of Sus scrofa with 23 samples.

Results

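Cloned porcine embryos at the 2-cell stage were compared with in vivo fertilized embryos of the same stage. The comparison used 3 of the 23 libraries of the study, and within it the genes that differed the same way in both cloned libraries, whichever scaling was applied. Of 7017 genes tested, 123 were higher and 93 were lower in both cloned libraries, so 216 genes are described below out of 8603 in the deposited table.

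NT-D embryos were clones made with ear fibroblasts of a 1-year-old Duroc boar. NT-LW embryos were clones of a Laiwu boar (a Chinese breed) of the same age, made with the same kind of cell. IV-D embryos were flushed from Duroc sows after artificial insemination, and the boar that gave the NT-D cells sired all of them. Recipient oocytes of both clone groups came from slaughterhouse ovaries of hybrid sows, not of Duroc or Laiwu sows, and were matured in vitro. These oocytes were then enucleated, fused with 1 fibroblast and activated by electric pulses, and the clones were cultured in PZM3 medium under low oxygen. The embryos of a clone sample were pools of about 5 to 10. The zona pellucida was dissolved from all embryos before lysis. Each of the 3 libraries (IV-D 2C, NT-D 2C and NT-LW 2C) is the only one of its condition, so there is no replicate check, no difference below has a p-value between conditions, and both clone libraries are set against the same IV-D library. Nuclear transfer, the breed of the oocyte donor, the source and maturation of the oocyte, and culture were joined in these groups. They cannot be told apart at the 2-cell stage. Sex was joined with them, since clones of boar cells are male and an in vivo sample mixed the unsexed embryos of a sow, male and female.

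After fertilization or activation an embryo lives on RNA and protein stored by the oocyte. These maternal transcripts are held in the cytoplasm, translated on demand through changes of their poly(A) tails, and destroyed in steps, while the embryo's own genome is switched on, in the pig mainly around the 4-cell stage. A 2-cell embryo is therefore largely a record of the oocyte. In nuclear transfer the nucleus of a differentiated cell takes the place of the zygotic nuclei, and the donor cell brings its own cytoplasm and RNA into the egg.

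The question was which transcripts set both kinds of clone apart from in vivo embryos. Depth was 22991067 fragments in IV-D 2C, 18103471 in NT-D 2C and 20261305 in NT-LW 2C. FPKM (fragments per kilobase of exon per 1000000 fragments) did not put the libraries on a common level. The median FPKM of the tested genes was 5.61 in IV-D 2C, 7.26 in NT-D 2C and 10.8 in NT-LW 2C, while the 10 genes with the most fragments took 20.1%, 17.3% and 14.8% of the depth. A difference is here the log2 of FPKM plus 1 in a clone library minus that in IV-D 2C, and a gene was called when it passed 1 in either direction. As deposited, the median gene stood 0.27 higher in NT-D 2C and 0.66 higher in NT-LW 2C. Each library was therefore also divided by its median-ratio factor (0.758 for IV-D 2C, 0.973 for NT-D 2C and 1.35 for NT-LW 2C), after which both medians were within 0.02 of 0.

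The scaling decided most of the calls. As deposited, 351 genes were higher and 93 lower in both clone libraries. After scaling, 123 (1.75%) were higher and 285 (4.06%) lower. All 123 of the scaled set were also called as deposited, so the higher genes are those that stay above the common shift. Scaling lowers both clone libraries against IV-D 2C, so this overlap was all but fixed in advance and adds no support to the higher set. The 93 lower genes are those that were lower in spite of it, and the other 192 genes of the scaled lower set were called after scaling alone. Over all tested genes the shared and stable share was 1.75% higher and 1.33% lower. Singly, 2.66% of genes were higher and 4.52% lower in NT-D 2C after scaling, and 13% higher and 16.4% lower in NT-LW 2C. At the edge, the smallest of the 4 differences of SRSF7 was 1.003, inside the limit, and that of BCL2L1 was 0.999, outside it. PPID was the last gene inside the lower set at -1.002 and MTAP the first outside it at -0.9997.

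**Figure D1:**
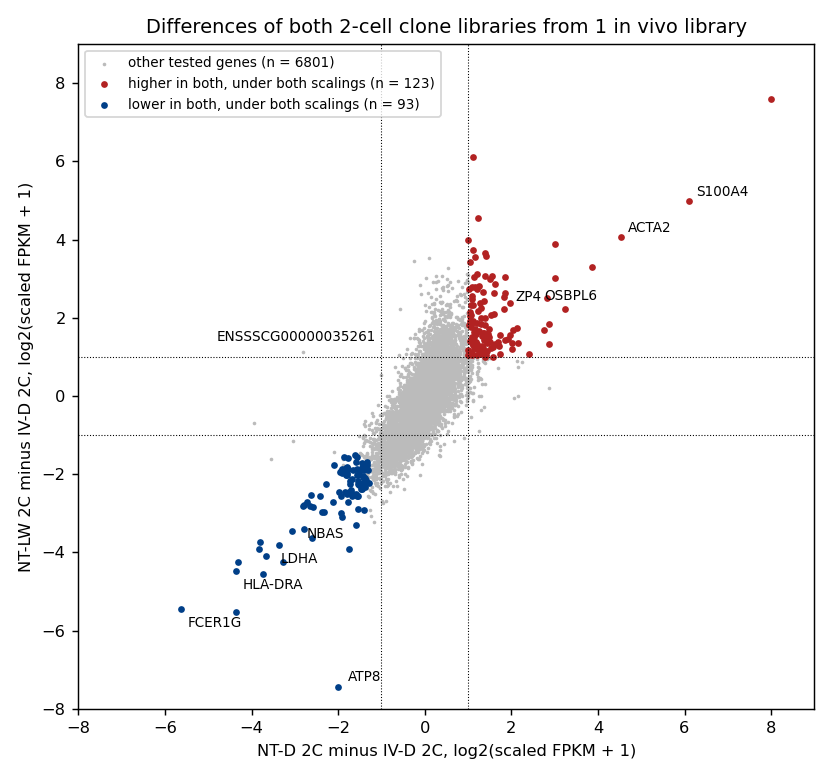
Each point is 1 of the tested genes, by its log2 difference of scaled FPKM plus 1 from IV-D 2C in NT-D 2C (x axis) and in NT-LW 2C (y axis), with dotted lines at the limit of 1. The 123 red genes and 93 blue genes passed the limit in both libraries under both scalings. Both axes subtract the same IV-D library, so the slope of the cloud is not a measure of agreement between the clones.

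The 2 largest shared increases among genes with a symbol were in S100A4 and ACTA2. S100A4, a calcium-binding protein long used as a fibroblast marker, had 0.12 FPKM in IV-D 2C, 76.8 in NT-D 2C and 48.2 in NT-LW 2C. These values rest on 2, 1004 and 705 fragments. After scaling, the ratio to IV-D 2C was 497 in NT-D 2C (95% counting interval 137 to 4107) and 224 in NT-LW 2C (61.8 to 1852). Such intervals are exact binomial ones on fragments and cover counting error only. ACTA2, the smooth muscle actin of contractile fibroblasts, stood at 0.313 FPKM in IV-D 2C and at 30.6 and 30.7 in the clone libraries, 76.4-fold (47.5 to 131) and 55-fold (34.2 to 94.6) higher after scaling. S100A6, a calcium-binding protein encoded near S100A4 on chromosome 4, had 0.741, 17.2 and 11.2 FPKM in the same order. In all 3 genes both clone libraries lay far above the in vivo library. After scaling the clones were close to each other in ACTA2, while S100A4 and S100A6 were lower in NT-LW 2C than in NT-D 2C by a little over 1 on the log2 scale.

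The upstream sequences of the genes that carry this contrast are shown because, among genes with a symbol, ACTA2 and S100A4 had the largest shared increases over IV-D 2C and FCER1G, described further on, the largest shared decrease. They are the 250 bases before the start of the RefSeq gene model in Sscrofa11.1, read along the strand of the gene. The capitals mark matches on either strand to 1 of 7 motifs, a list chosen after the values were seen. These were the TATA box with the letters TATAA, the CCAAT box, the GC box with the letters GGGCGG, the cyclic AMP response element with the letters TGACGTCA, the hypoxia response core with the letters ACGTG, the ETS core with the letters CCGGAAG, and the CArG box with the letters CCWWWWWWGG, where W is A or T. Stretches like a CArG box but with a G or C at a W, which the ACTA2 window holds, were not marked. ACTA2 lies at chr14:100868145-100886732, and its window is chr14:100886733-100886982 on the minus strand. S100A4 lies at chr4:96088102-96091160, with its window at chr4:96087852-96088101 on the plus strand. FCER1G lies at chr4:89242467-89246344, with its window at chr4:89246345-89246594 on the minus strand.
ACTA2: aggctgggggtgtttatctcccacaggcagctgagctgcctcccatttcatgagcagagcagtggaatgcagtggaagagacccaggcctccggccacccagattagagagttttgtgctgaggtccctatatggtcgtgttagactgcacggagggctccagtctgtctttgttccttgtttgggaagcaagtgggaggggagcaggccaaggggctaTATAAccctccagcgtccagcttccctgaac
S100A4: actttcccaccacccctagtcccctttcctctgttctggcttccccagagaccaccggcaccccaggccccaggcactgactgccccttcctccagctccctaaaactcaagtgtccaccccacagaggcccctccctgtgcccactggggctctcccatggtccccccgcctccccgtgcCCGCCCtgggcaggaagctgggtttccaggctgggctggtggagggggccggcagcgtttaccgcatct
FCER1G: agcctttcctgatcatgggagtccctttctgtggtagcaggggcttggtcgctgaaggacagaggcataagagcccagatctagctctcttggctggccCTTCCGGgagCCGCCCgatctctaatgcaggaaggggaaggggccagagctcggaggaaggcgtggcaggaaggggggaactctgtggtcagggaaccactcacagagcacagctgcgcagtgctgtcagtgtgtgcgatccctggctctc

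The ACTA2 window holds 1 TATA box, 31 to 27 bases before the gene start, and no GC box. The S100A4 window holds a GC box, and the FCER1G window a GC box and an ETS core. Windows could be read for 5641 tested genes, among them 86 of the higher and 52 of the lower set. TATAA was found in 13.7% of all windows, in 16.3% of the higher and in 25% of the lower set. In the same order, the GC box was found in 57.2%, 57% and 38.5%, the CCAAT box in 34.4%, 29.1% and 38.5%, and the hypoxia response core in 21.8%, 18.6% and 15.4%. The ETS core was found in 11.9%, 12.8% and 3.85%, the cyclic AMP response element in 2.45%, 2.33% and 0%, and the CArG box in 1.33%, 3.49% and 5.77%. Mean GC content was 59.8% over all windows, 61.2% in the higher set and 51.5% in the lower set. These are descriptions of letters in a window and were not tested.

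The wider list of fibroblast markers holds S100A4, ACTA2 and S100A6 as well. The list has 24 genes, of which 18 were tested. In IV-D 2C 8 genes of the list reached an FPKM of 1, against 18 in each clone library. Some markers were thus tested only because of their level in the clones, so the share below is no independent measure. Of those tested, 7 were higher in both clone libraries under both scalings, against 1.75% of all tested genes. They were S100A4, ACTA2, S100A6, COL1A1, COL1A2, COL3A1 and CALD1. The collagens form the fibrillar matrix that fibroblasts secrete, and CALD1 encodes caldesmon, an actin-binding protein. COL1A2 had 1.4 FPKM in IV-D 2C, 9.56 in NT-D 2C and 9.2 in NT-LW 2C. COL1A1 had 0.0896, 2 and 3.22 FPKM, and COL3A1 0.408, 2.27 and 3.86. The median difference of the list was 0.75 in NT-D 2C and 0.69 in NT-LW 2C after scaling. Its sign was the same under every scaling tried, though most other scalings only raise the clone libraries. Not every marker was higher. ANXA1, an annexin of epithelial, myeloid and mesenchymal cells, was lower in both clone libraries (11.2, 3.48 and 2.37 FPKM), and PDGFRA, a receptor that defines many fibroblasts, was near 0 in all 3 (0.186, 0.118 and 0.227 FPKM).

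The same transcripts were read at the stages on either side, in libraries that the choice of genes did not use. S100A4 was at 0 FPKM in both oocyte libraries, 63.9 in NT-D and 76.1 in NT-LW 1-cell embryos, and 95.3 and 114 at the 4-cell stage. It was also present in IV-D 1-cell embryos, at 39.9 FPKM, and at 0 in IV-D 4-cell embryos. ACTA2 was at 39.6 and 46.9 FPKM in the 1-cell clones against 4.66 in IV-D, and at 20.4 and 25.9 in the 4-cell clones against 0.8. COL1A1 was no higher in 1-cell clones (3.66 and 1.79 FPKM) than in IV-D 1-cell embryos (4.76). The gap between clones and in vivo embryos was thus wide at the 2- and 4-cell stages and narrow or absent at the 1-cell stage in S100A4 and COL1A1. Summed over the list without its most abundant gene, the level was 18.1 and 28.2 FPKM in the IV-D and in vitro matured oocytes, 148, 199 and 228 in the 1-cell IV-D, NT-D and NT-LW libraries, 30.2, 177 and 148 at the 2-cell stage, and 44.6, 339 and 343 at the 4-cell stage. The part of carried-over donor cell RNA, of transcription in the embryo and of other cells in these values was not tested.

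**Figure D2:**
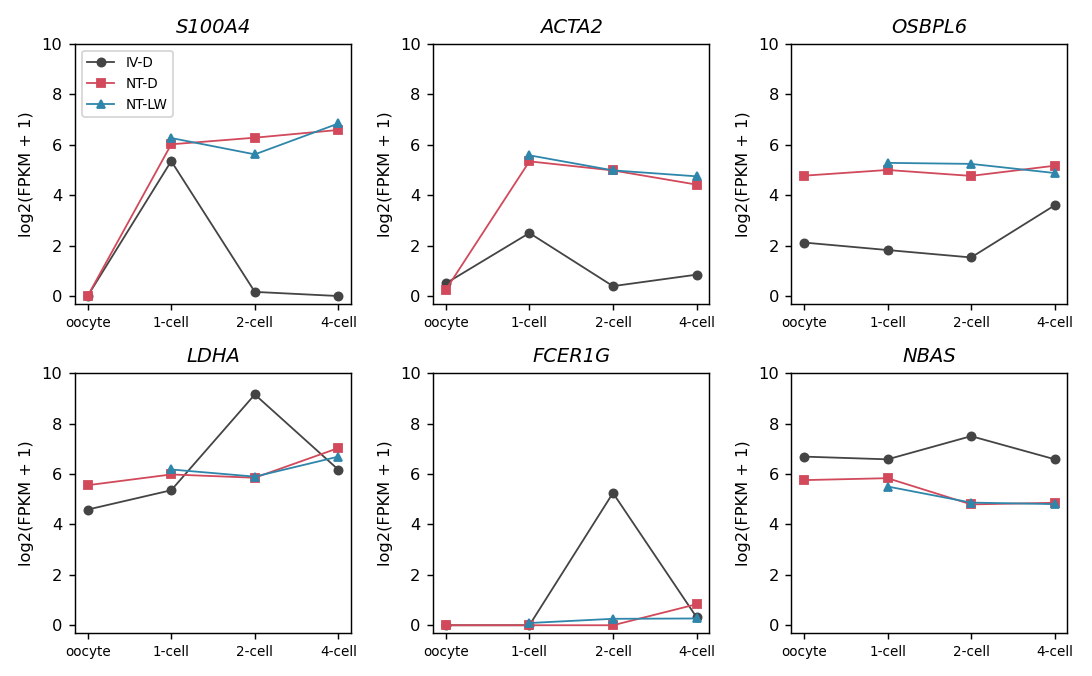
Deposited FPKM, as log2 of FPKM plus 1, of 6 genes from the oocyte to the 4-cell stage in IV-D (dark grey), NT-D (red) and NT-LW (blue) libraries, 1 library per point. S100A4 and ACTA2 stand high in clones from the 1-cell stage, OSBPL6 already in the in vitro matured oocytes (red point at the oocyte stage), LDHA and FCER1G peak in IV-D 2C, and NBAS is highest in IV-D throughout.

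A second set of higher genes was already different in the oocytes. OSBPL6, a lipid-binding protein of the oxysterol-binding family, had 1.89 FPKM in IV-D 2C, 26.2 in NT-D 2C and 36.9 in NT-LW 2C. This was 10.8-fold (9.1 to 12.9) and 10.9-fold (9.22 to 13) higher after scaling. Its level was 3.35 FPKM in in vivo matured oocytes and 26.4 in in vitro matured oocytes. MRAP2, an accessory protein of melanocortin receptors, stood at 0.376, 4.91 and 3.34 FPKM at the 2-cell stage and at 0.202 and 4.85 in the in vivo and in vitro matured oocytes. FSD2, a protein of striated muscle, had 2.68, 10.5 and 12.2 FPKM at the 2-cell stage against 2.05 and 11.9 in these oocytes. The clone values of these 3 genes were thus close to those of the in vitro matured oocyte, and the IV-D value to that of the in vivo matured oocyte. Much higher levels were found for ENSSSCG00000035520, a gene of 225 bases with no symbol that was singled out after its values were seen. It had 18.2 FPKM in IV-D 2C and 6213 and 6508 in the clone libraries, and 4.17 and 5199.9 in the in vivo and in vitro matured oocytes.

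Over the 123 higher genes, 37 (30.1%) were also higher in in vitro than in in vivo matured oocytes, against 6.38% of all tested genes. At the 1-cell stage 36 (29.3%) were higher in NT-D and 27 (22%) in NT-LW, against 7.34% and 10.6%. At the 4-cell stage the counts were 39 (31.7%) and 40 (32.5%), against 9.56% and 9.32%. By the 8-cell stage they were 21 (17.1%) and 27 (22%), against 11.5% and 15.1%. Each stage was scaled on its own. Most of the 123 genes were therefore not called at another given stage. Both clone libraries were higher at the 1-cell and at the 4-cell stage for 8 genes (0.613% of all tested genes), which were FSD2, SAL1, ACTA2, BMP15, OSBPL6, MRAP2, YAF2 and ENSSSCG00000035520, and 4 of these (FSD2, OSBPL6, MRAP2 and ENSSSCG00000035520) were higher in the in vitro matured oocytes too.

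Transcripts of the oocyte itself made up a further group. ZP4, a glycoprotein of the zona pellucida, had 82.7 FPKM in IV-D 2C, 380 in NT-D 2C and 856 in NT-LW 2C, 3.58-fold (3.45 to 3.73) and 5.8-fold (5.59 to 6.01) higher after scaling. BMP15, the growth factor that oocytes send to their cumulus cells, had 52, 142 and 521 FPKM. PABPC1L, the poly(A)-binding protein of oocytes, had 1.07, 3.97 and 9.66 FPKM. In each of these genes NT-LW 2C stood above NT-D 2C, which stood above IV-D 2C. Both ZP4 and BMP15 were lower in IV-D than in cloned embryos at the 4-cell stage as well (187 against 672 and 652 FPKM for ZP4, and 53.4 against 355 and 389 for BMP15). The list of egg coat and oocyte-secreted factors did not move as one. Of 19 genes tested, 3 were higher in both clones and 1, CD9, a tetraspanin needed for sperm fusion, was lower in both after scaling (1.88, 0.284 and 0.863 FPKM). Over all tested genes 1.75% were higher and 4.06% lower in both after scaling. OOSP2, an oocyte-secreted protein, was lower in NT-LW 2C alone (8216, 5854 and 3378 FPKM). The medians were 0.15 in NT-D 2C and 0.81 in NT-LW 2C after scaling. They were positive under every scaling, though most other scalings only raise the clone libraries.

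Genes that store and polyadenylate maternal mRNA gave 2 shared higher genes of 37 tested and none lower, with medians of 0.16 and 0.44. Over all tested genes 1.75% were higher and 4.06% lower in both after scaling. PABPN1L, a cytoplasmic poly(A)-binding protein of oocytes and early embryos, had 1.88 FPKM in IV-D 2C, 7.04 in NT-D 2C and 109 in NT-LW 2C, 2.91-fold (1.97 to 4.4) and 32.3-fold (23.2 to 46.6) higher. PABPC1L, named above, was the other. Of 19 maternal effect genes 1 was higher in both, CDH1, the cadherin of blastomere adhesion (3.61, 15.3 and 31.1 FPKM). PADI6, a protein of the cytoplasmic lattices of oocytes, and MOS, the kinase that holds oocytes in metaphase, had differences of 0.66 and 0.29 in NT-D 2C and of 1.88 and 1.90 in NT-LW 2C. Of 56 genes of deadenylation and mRNA decay 2, LSM5 and EXOSC9, were lower in both after scaling and none was higher, with medians of 0.04 and 0.11. BTG4, an adaptor for the destruction of maternal mRNA, had 5469, 3823 and 4199 FPKM and a difference of -0.88 and -1.22. The median of the maternal effect list was 0.65 in NT-LW 2C and -0.16 in NT-D 2C, where the sign turned as deposited.

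Other genes among the largest shared increases over IV-D 2C served unrelated functions. ATP6V0B, a membrane subunit of the proton pump of vesicles, had 10, 49.3 and 118 FPKM in IV-D 2C, NT-D 2C and NT-LW 2C. SELENOM, a selenoprotein of the endoplasmic reticulum, had 1.3, 16.7 and 10.4 FPKM. ACP6, a lysophosphatidic acid phosphatase of mitochondria, had 4.61, 24 and 24.4 FPKM. SRARP, DRAP1 and COQ8A act in steroid receptor signalling, in repression of RNA polymerase II and in coenzyme Q synthesis. Their scaled differences were 1.97, 1.44 and 1.55 in NT-D 2C and 2.39, 1.54 and 3.06 in NT-LW 2C. DRAP1 already differed in the oocytes, at 1.64 FPKM after maturation in vivo and 18.1 after maturation in vitro. The paper also reports DRAP1 as higher in in vitro matured oocytes. TRIM50, a ubiquitin ligase, and PLK3, a polo-like kinase of the stress response, were uneven between the clones. TRIM50 had 5.95, 22.1 and 142 FPKM and PLK3 0.306, 2.63 and 22.7, so both were several times higher in NT-LW 2C than in NT-D 2C.

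**Figure D3:**
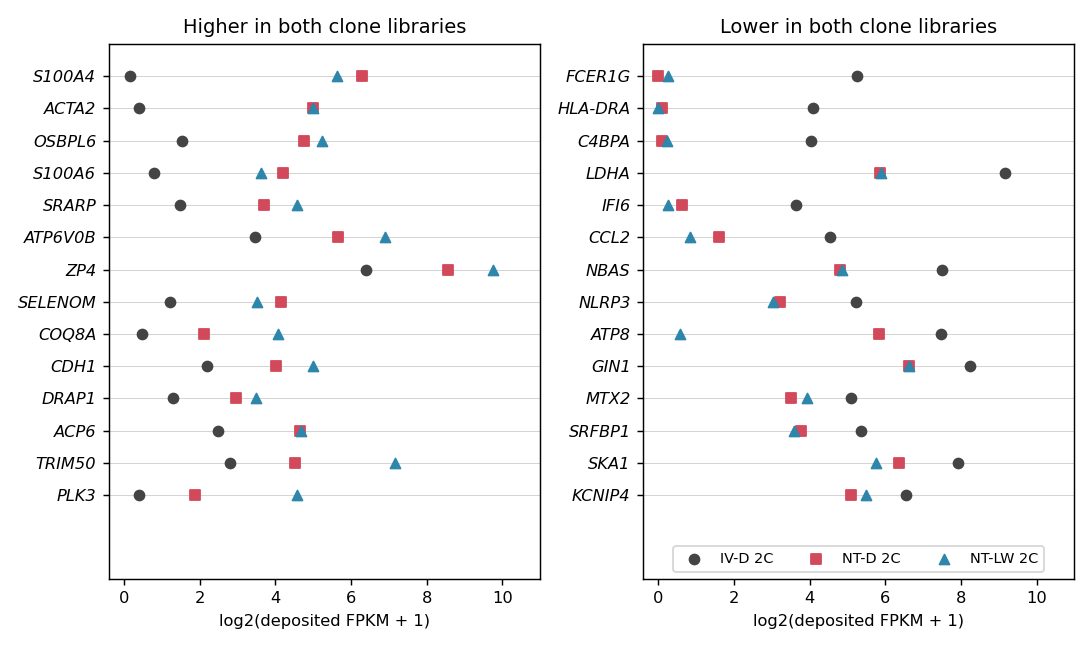
Deposited FPKM, as log2 of FPKM plus 1, of the 14 genes with the largest shared difference in each direction, in IV-D 2C (dark grey circles), NT-D 2C (red squares) and NT-LW 2C (blue triangles), 1 library each. The dark grey circle lies left of both other symbols in all 14 higher genes and right of both in all 14 lower genes, as the rule requires.

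The lower genes were led by transcripts of blood cells that stood out in the in vivo library alone. FCER1G, the signalling chain of Fc receptors on myeloid cells, had 37 FPKM in IV-D 2C (651 fragments), 0 in NT-D 2C and 0.194 in NT-LW 2C (3 fragments). It was at least 219-fold lower in NT-D 2C, taking 3 fragments as the floor for a count of 0, and 342-fold lower (116 to 1661) in NT-LW 2C. HLA-DRA, a chain of class II histocompatibility molecules, had 16.1, 0.0766 and 0 FPKM, on 535, 2 and 0 fragments. CCL2, a chemokine that draws monocytes, had 22.2, 2.06 and 0.79 FPKM. In FCER1G and HLA-DRA the clone libraries were at or near 0, and in CCL2 both were far below IV-D 2C. HBB, the beta chain of haemoglobin, had 9.82, 0 and 0.0555 FPKM, PPBP, a chemokine of platelets, 4.47, 0 and 0, and S100A12, a calcium-binding protein of neutrophils, 4.25, 0 and 0. These last 3 genes were chosen after their values were seen.

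This signal did not appear in the in vivo libraries before or after the 2-cell stage. FCER1G was at 0 FPKM in IV-D oocytes, 0 in IV-D 1-cell embryos and 0.247 in IV-D 4-cell embryos. HLA-DRA was at 0.195, 0 and 0 FPKM at these stages. A list of leukocyte markers was put together after these genes had been seen. Of its 12 genes, 11 reached an FPKM of 1 in IV-D 2C, 5 in NT-D 2C and 4 in NT-LW 2C, and 3 to 5 in the other oocyte, 1-cell and 4-cell libraries. Without its most abundant gene the list summed to 128 FPKM in IV-D 2C, 42.1 in NT-D 2C and 31.2 in NT-LW 2C, and to 7.94 to 36.4 in those other libraries. PPBP was at 0 in every other one of these libraries. Whether blood or tract cells were in the in vivo pool was not tested, and in a pool more cells and more RNA per cell cannot be told apart. Without these genes, the mitochondrial genome and the interferon and epithelium lists, 79 of the 93 lower genes remained.

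Single interferon and inflammation genes were lower in the clones, but the interferon list as a whole was not lower under every reading. IFI6, an interferon-induced mitochondrial protein, had 11.4 FPKM in IV-D 2C, 0.545 in NT-D 2C and 0.187 in NT-LW 2C. IFIT1, a sensor of foreign RNA, had 3.97, 0.16 and 0.0816 FPKM. C4BPA, a regulator of complement that uterine epithelium also secretes, had 15.4, 0.0608 and 0.163 FPKM, on 962, 3 and 9 fragments. Other genes of the same response went the other way or differed little. MX1, an antiviral GTPase, had 11, 23 and 31.8 FPKM and a scaled difference of 0.67 and 0.66. Of 12 interferon-stimulated genes tested, on a list drawn up after the data were seen, 4 were lower in both after scaling and none was higher in both. Of all tested genes 4.06% were lower and 1.75% higher in both. Without its most abundant gene the list summed to 86.3 deposited FPKM in IV-D 2C, 120 in NT-D 2C and 157 in NT-LW 2C. Its medians were -0.25 in NT-D 2C and -0.24 in NT-LW 2C after scaling, and -0.04 and 0.50 as deposited. Of 8 oviduct and uterine epithelium markers tested, likewise listed afterwards, 3 were lower and 1, CDH1, was higher, and KRT8 and KRT18, keratins that define simple epithelium, were under 0.3 FPKM in all 3 libraries. NLRP3, the sensor of the inflammasome, which oocytes also transcribe here, had 36.5, 8.32 and 7.11 FPKM at the 2-cell stage and 7.3 and 11.9 in the in vivo and in vitro matured oocytes.

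LDHA, the subunit of lactate dehydrogenase that favours lactate formation, had 569 FPKM in IV-D 2C, 56.8 in NT-D 2C and 58.6 in NT-LW 2C. This was 12.9-fold (12.2 to 13.5) and 17.4-fold (16.6 to 18.2) lower after scaling, on 21729, 1707 and 1970 fragments. Here too the in vivo 2-cell library was the exception. LDHA stood at 23.1 FPKM in oocytes matured in vivo and 46 in those matured in vitro, at 40, 62.2 and 71.5 in IV-D, NT-D and NT-LW 1-cell embryos, and at 71, 130 and 102 at the 4-cell stage. LDHC, the testis form of the enzyme, had 185, 125 and 128 FPKM and differences of -0.92 and -1.36. Of 16 glycolysis and lactate genes tested LDHA was the only one lower in both clone libraries, and none was higher in both. Of all tested genes 4.06% were lower and 1.75% higher in both after scaling. The median of the list was -0.14 in NT-D 2C and -0.13 in NT-LW 2C after scaling and turned positive as deposited.

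NBAS and MTX2 were lower in the clones at every stage from 1 cell to 4 cells. NBAS, a factor of Golgi-to-endoplasmic reticulum transport, had 180 FPKM in IV-D 2C, 26.8 in NT-D 2C and 28.2 in NT-LW 2C, 8.65-fold (8.35 to 8.97) and 11.4-fold (11.07 to 11.8) lower. It had 102 FPKM in oocytes matured in vivo and 53.1 in those matured in vitro, and 95, 28 and 27 in 4-cell IV-D, NT-D and NT-LW embryos. MTX2, a protein import factor of the mitochondrial outer membrane, had 33.1, 10.3 and 14.2 FPKM at the 2-cell stage, and 64, 14.1 and 21.6 at the 1-cell stage. LSM5, a subunit of the ring that leads mRNA to decapping and of the spliceosome, had 95.1, 37.7 and 28 FPKM at the 2-cell stage, and 355, 54.2 and 61.1 at the 1-cell stage. In these 3 genes IV-D stood above both clone groups at the 1-cell and 4-cell stages too, in libraries outside the choice, while the order of the clone groups varied. In oocytes MTX2 ran the other way, at 32.4 FPKM after maturation in vivo and 49 after maturation in vitro. SKA1, which ties chromosomes to spindle microtubules, had 241, 80.5 and 52.9 FPKM. GIN1, SRFBP1 and KCNIP4 had differences of -1.97, -1.94 and -1.83 in NT-D 2C and of -2.45, -2.57 and -1.90 in NT-LW 2C.

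Of the 93 lower genes, 9 (9.68%) were lower in in vitro than in in vivo matured oocytes, against 5.63% of all tested genes. At the 1-cell stage 38 (40.9%) were lower in NT-D and 27 (29%) in NT-LW, against 9.42% and 11.5%. At the 4-cell stage the counts were 17 and 17 (18.3% each), against 10% and 7.94%, and at the 8-cell stage 14 (15.1%) and 12 (12.9%), against 10.3% and 12.4%. In 7 genes (0.47% of all tested genes) both clone libraries were lower at the 1-cell and at the 4-cell stage, among them NBAS, MTX2, LSM5, ATP8 and MOBKL3. The in vivo libraries themselves were also read in sequence. In 60 of the 93 lower genes (64.5%) IV-D 2C passed both IV-D 1-cell and IV-D 4-cell embryos by more than 1 on the log2 scale, against 6.11% of all tested genes. In 29 of the 123 higher genes (23.6%) it fell short of both by as much, against 2.52%. The choice of genes used IV-D 2C, so these shares describe how far that library departs from its neighbours for the chosen genes and are no independent measure.

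The mitochondrial genome, which encodes subunits of the respiratory chain and is inherited through the oocyte, had the lowest median of the 32 lists in both clone libraries. After scaling, 5 of its 13 genes were lower in NT-D 2C and all 13 in NT-LW 2C, against 4.52% and 16.4% of all tested genes, and the medians were -0.81 and -2.37, negative under every scaling. Those shares cover genes of all levels. In the fifth of tested genes with the highest mean scaled FPKM the medians were -0.23 and -0.77. The oocyte donors were hybrid sows for the clones and Duroc sows for IV-D, and the part of breed was not tested. ND1, of complex I, had 2698 FPKM in IV-D 2C, 1300.3 in NT-D 2C and 639 in NT-LW 2C. ND2 had 3495, 1862 and 823, and COX3, of complex IV, had 22901, 16739.7 and 7423. ATP6, a subunit of the ATP synthase, differed least in NT-D 2C apart from ND3, with 13869.8, 14416 and 7475 FPKM and differences of -0.30 and -1.73. ATP8, which overlaps ATP6 and so shares its reads, had 177, 56.3 and 0.484 FPKM, on 830, 208 and 2 fragments, and its value is uncertain. As deposited, the level fell from IV-D 2C to NT-D 2C to NT-LW 2C in every gene but ND3 and ATP6, where NT-D 2C stood above IV-D 2C. In oocytes ND1, ND2, ND5 and ND6 ran the other way, while ATP8 did not. ND1 had 721 FPKM after maturation in vivo and 1430 after maturation in vitro, and ND2 1422 and 2383. At the 4-cell stage ND1 was highest in IV-D (4758, 3202 and 3220 FPKM in IV-D, NT-D and NT-LW). ND6 was lowest there (1191, 2099 and 2682 FPKM). Nuclear genes of oxidative phosphorylation gave few shared calls. Of 53 tested 2 were lower and 2 higher in both clone libraries after scaling, against 4.06% and 1.75% of all tested genes. The medians were 0.20 in NT-D 2C and -0.34 in NT-LW 2C, the second positive as deposited. NDUFS6, of complex I, was among the higher ones (1.99, 7.72 and 22 FPKM in IV-D 2C, NT-D 2C and NT-LW 2C). The lower ones, after scaling alone, were ATP5PB (46.6, 29 and 16.6 FPKM) and ATP5PO (120, 69.6 and 60.8 FPKM).

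Lists of chromatin regulators leaned upward, further in NT-LW 2C than in NT-D 2C, with few genes called in both. Of 46 genes of histone acetylation and chromatin remodelling 13 (28.3%) were higher and 5 (10.9%) lower in NT-LW 2C, against 13% and 16.4% of all tested genes, and none was higher in NT-D 2C, against 2.66%. The medians were 0.30 and 0.62. HAT1, which acetylates new histone H4, was lower in both after scaling alone (348, 176 and 189 FPKM). Of 22 histone lysine methyltransferases 8 (36.4%) were higher in NT-LW 2C, against 13% of all tested genes, and none in NT-D 2C, against 2.66%. In this list 1 gene (DPY30) was lower in both after scaling, and the medians were 0.21 and 0.69. SETD1A, a methyltransferase of histone H3 lysine 4, had 1, 2.34 and 9.66 FPKM, and KMT2C, of the same function, 2.1, 5.57 and 10.8. DNA methylation genes had medians of 0.21 and 0.62, with DNMT3B, a de novo methyltransferase, at 2.81, 4.02 and 10.7 FPKM and UHRF1, which guides maintenance methylation, at 2.09, 3.48 and 9.02. Histone lysine demethylases stood at 0.08 and 0.20, and KDM5A, KDM1A and KDM3A had differences of 0.87, 0.45 and 0.25 in NT-D 2C and of 1.31, 0.86 and 0.45 in NT-LW 2C. The medians of all these lists were positive under every scaling tried, though most other scalings only raise the clone libraries. Low and long genes at large leaned the same way. In NT-D 2C and NT-LW 2C the medians were 0.13 and 0.44 in the 1404 tested genes with the lowest mean scaled FPKM. In the 1404 longest genes they were 0.12 and 0.23. Whether the chromatin lists differ from genes of like level and length was not tested. Their lean is therefore not read as a trait of chromatin regulators.

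Ribosomal protein genes differed in direction between the clone libraries after scaling. Of 42 cytosolic ribosomal protein genes tested, 7 (16.7%) were higher and 2 (4.76%) lower in NT-D 2C, against 2.66% and 4.52% of all tested genes, and none was higher and 13 (31%) were lower in NT-LW 2C, against 13% and 16.4%. The median was 0.26 in NT-D 2C and -0.68 in NT-LW 2C, and the second was 0.02 as deposited. RPL26L1, a paralog of a large subunit protein, was lower in both (1267, 545 and 399 FPKM), as was RPL23 (3.51, 1.04 and 0.959). RPS20 had 44, 122 and 71.1 FPKM and RPLP0 73.9, 197 and 152, both called higher in NT-D 2C alone. Ribosomal protein genes share sequence with processed pseudogenes, which the counting could split, so single members are uncertain. Of 71 splicing factors 2 were higher and 2 lower in both, against 1.75% and 4.06% of all tested genes after scaling. SNRPE, a core protein of spliceosomal particles, was lower in both (3327, 1439 and 1014 FPKM), and SRSF7, a regulator of splice sites, was higher in both (2.26, 10.6 and 9.45 FPKM). Of 41 translation factors EIF4EBP1, which holds back cap-dependent translation, was higher in both (2.11, 8.09 and 16.9 FPKM), and EIF4A2, a helicase of initiation, was lower after scaling alone (155, 76.9 and 89.6 FPKM). The proteasome had 1 gene higher and 1 lower of 35, with medians of -0.08 and -0.39, both positive as deposited.

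Genes of transcription and genome activation were, like the tested genes at large, mostly called in 1 library or in none. Of 66 genes of RNA polymerase II and general transcription 3 were higher and 3 lower in both. Of all tested genes 1.75% and 4.06% were. POLR2F, a subunit shared by the polymerases, had 1.87, 12.8 and 10.7 FPKM, and GTF2H5, of the repair and initiation factor TFIIH, 20.9, 6.53 and 11.4, called lower in both after scaling alone. Of 21 genome activation and pluripotency factors SRSF7 alone was higher in both, and the medians were -0.03, which turned positive as deposited, and 0.08. A further set was chosen by the in vivo libraries outside the comparison. Of 335 genes under an FPKM of 1 in IV-D oocytes and 1-cell embryos and at 5 or more in IV-D 4-cell embryos, 38 reached 1 in IV-D 2C, 44 in NT-D 2C and 78 in NT-LW 2C. Their median FPKM was 0.177, 0.28 and 0.314, so the genes that the in vivo embryo turns on by the 4-cell stage were near 0 in all 3 libraries. Of 524 tested genes that were over 4-fold lower at the 4-cell than at the 1-cell stage in IV-D, 48 were lower and 26 higher in NT-D 2C, where 4.52% and 2.66% of all tested genes were called, and 138 were lower and 93 higher in NT-LW 2C, where 16.4% and 13% were. The medians were -0.17 and -0.13 after scaling and positive as deposited. From the 1-cell to the 2-cell stage the median change of this set was -0.80 in IV-D, -0.25 in NT-D and 0.09 in NT-LW, and IV-D 1-cell embryos, one end of that step, were used to choose the set.

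Cell division, repair and stress lists gave few shared calls. So did all tested genes, of which 1.75% were higher and 4.06% lower in both after scaling. The counts below are therefore not read as a trait of these lists. Of 50 cyclin, kinase and mitotic genes 1 was higher (PLK3) and 3 were lower in both. PLK1, the main mitotic kinase, had 3.69, 10.4 and 58.1 FPKM, with differences of 0.99 and 2.90, and MAD2L1, of the spindle checkpoint, was lower in both after scaling alone (402, 228 and 160 FPKM). Of 39 centrosome genes POC1B, a centriole protein, was lower in both (24.3, 12.2 and 13.8 FPKM) after scaling. Of 61 DNA repair genes PARP1, the sensor of strand breaks, was higher in both (2.27, 7.96 and 12 FPKM), and RAD54B, of homologous recombination, was lower in both after scaling. Of 50 DNA replication genes 1 was lower in both and none higher. Of 48 chaperones 4 were lower in both after scaling and 1, HSPA12A, an atypical member of the HSP family, was higher (0.107, 2.95 and 5.86 FPKM). The unfolded protein response had no shared call in 21 genes, with medians of 0.05 and 0.69, and CHAC1, a target of the stress factor ATF4, had 0.599, 1.23 and 8.19 FPKM. Of 32 antioxidant genes MGST3, a glutathione transferase, was lower in both (174, 89.4 and 87 FPKM) after scaling, along with MGST1, of the same family. Sterol and fatty acid synthesis, egg activation, immediate early and histone demethylase lists had no gene called in both. Of 18 apoptosis genes PDCD10 was lower in both after scaling.

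**Figure D4:**
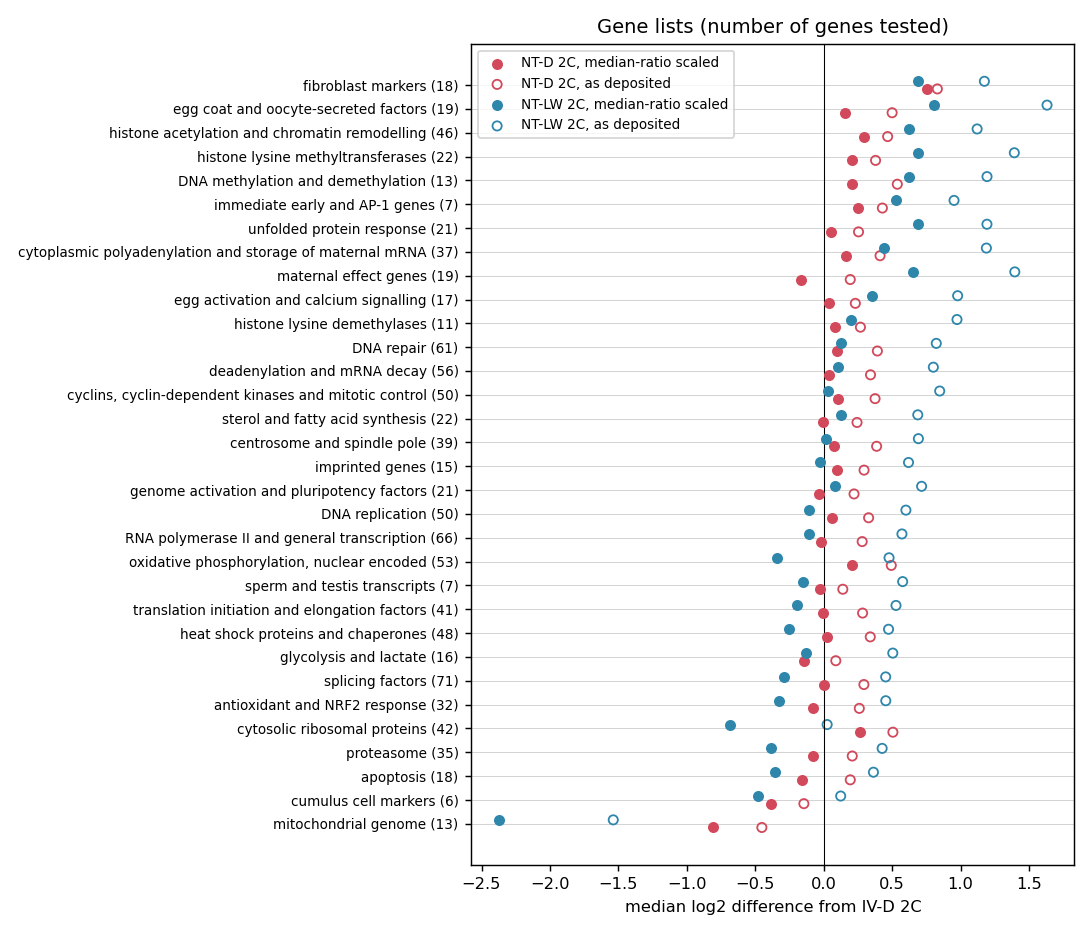
Median log2 difference from IV-D 2C of the tested genes of each of the 32 gene lists, with the number of genes tested in brackets, in NT-D 2C (red) and NT-LW 2C (blue), after median-ratio scaling (filled) and as deposited (open). The mitochondrial genome lies lowest in both libraries, fibroblast markers lie highest in NT-D 2C, and every open symbol lies right of its filled one.

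Markers of other cells in the pools were read on the same scale. Cumulus cell markers summed to 191 FPKM in IV-D 2C, 143 in NT-D 2C and 117 in NT-LW 2C, and of 6 tested none was higher in either clone library and 1, SERPINE2, was lower in both after scaling. Sperm and testis transcripts had no gene called in both libraries out of 7. Of 15 imprinted genes none was called in both, and PLAGL1, a paternally expressed zinc finger, had 35.9, 21.7 and 35.1 FPKM with differences of -1.05 and -0.85. Of 202 X-linked genes tested 3 were higher and 7 lower in both after scaling, against 1.75% and 4.06% of all tested genes. The X-linked medians were -0.04 in both libraries, positive as deposited. The clones were male and the in vivo pool was of mixed sex, and the part of sex in the X-linked values was not tested.

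The clone libraries also differed from each other, though no test of that difference could be made. After scaling 733 genes (10.4%) were called between them, 431 higher and 302 lower in NT-LW 2C, and 1 gene (0.0143%) stood on opposite sides of IV-D 2C. Pearson's r of log10 FPKM plus 1 over all genes of the table was 0.973 between IV-D 2C and NT-D 2C, 0.963 between NT-D 2C and NT-LW 2C and 0.921 between IV-D 2C and NT-LW 2C. NT-LW 2C was closer to the 1-cell clones, at 0.973 to NT-LW and 0.975 to NT-D, than to NT-D 2C. From the 1-cell to the 2-cell stage 987 tested genes were higher and 823 lower in IV-D, 886 and 688 in NT-D, and 238 and 242 in NT-LW. The NT-LW 2-cell library thus stood nearer to its 1-cell library than the other groups did to theirs. The points of these correlations are genes of single libraries, and depth and amplification are shared within each.

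The size of the differences followed the level and the length of the genes. The tested genes were ranked and cut into 5 groups of nearly equal number. In the 1404 genes with the lowest mean scaled FPKM the median difference was 0.13 in NT-D 2C and 0.44 in NT-LW 2C, and in the 1404 genes with the highest it was -0.23 and -0.77. By exonic length the medians ran from -0.10 and -0.47 in the shortest group to 0.12 and 0.23 in the longest. One factor per library does not remove these slopes. By level, the 123 higher genes were spread as 11, 29, 35, 26 and 22 from the lowest to the highest group and the 93 lower genes as 20, 14, 12, 12 and 35. Their median length was 1905 bases in the higher and 1821 in the lower set, against 3146 over all tested genes, and 55 of the higher and 45 of the lower genes were in the shortest group. Genes of both directions were thus shorter than the tested genes at large.

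**Figure D5:**
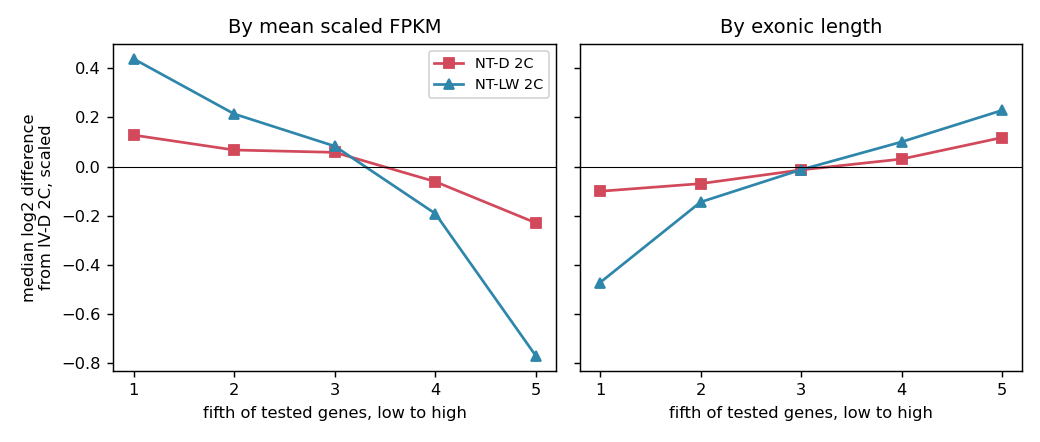
Median scaled log2 difference from IV-D 2C of the tested genes in 5 groups of nearly equal number, ranked by mean scaled FPKM (left) and by exonic length (right), in NT-D 2C (red squares) and NT-LW 2C (blue triangles). Both libraries fall with level and rise with length, and NT-LW 2C more steeply, from 0.44 to -0.77 by level.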

How the data were processed

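The values were those of 3 libraries of pooled 2-cell embryos, with the other libraries read for the stages on either side. The authors amplified poly(A) RNA with SMART-Seq v4, aligned paired-end reads with HISAT2 2.0.4 to Sscrofa11.1, counted them per Ensembl gene with HTSeq 0.9.1 (versions per the submitters' processing notes) and deposited FPKM for 8603 genes, 7371 with a symbol. How these genes were chosen is not given in the sources used here, so counts refer to the table. The kit does not mark strand.

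From the deposited FPKM, differences of log2(FPKM + 1) were computed for genes with an FPKM of at least 1 in 1 of the 3 libraries, as deposited and after median-ratio scaling. The pseudocount understates the change of low genes. FPKM values of a gene are multiples of 1 fragment's worth, which gave whole fragment numbers for all 8603 genes (tolerance 0.01) and with them lengths, depth (18103471 to 22991067 fragments) and 95% exact binomial intervals, which cover counting error only. The steps were tested on simulated data. Positions were those of RefSeq genes with the same symbol (6910 matched once).

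The genes and lists were chosen with earlier results of these data known. Named were the 14 genes per direction with the largest smaller difference among those with a symbol and an FPKM of at least 10, up to 4 genes of each of 32 lists with an FPKM of at least 5, and genes called in opposite directions. Any other gene named was chosen after its values were seen. Lists were written from general knowledge, and 3 lists were added after the data were seen. Alternatives were pseudocounts, filters, scalings, a higher limit and an exact binomial test on fragments. Scripts ran in Python 3.11.15 with scipy 1.17.1 for the intervals, pandas 2.3.3 and numpy 2.4.6 for the tables, and figures drawn in matplotlib 3.10.9.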

Additional observations from a re-analysis of the deposited data

Results flagged for a closer look

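One gene was called in opposite directions by the clone libraries after scaling, which was 0.0143% of the genes tested. ENSSSCG00000035261, which has no symbol, had 5.29 FPKM in IV-D 2C, 0.134 in NT-D 2C and 22.1 in NT-LW 2C, on 50, 1 and 184 fragments. It was 2.81 lower than IV-D 2C in NT-D 2C and 1.12 higher in NT-LW 2C on the log2 scale, a gap of 3.93 between the clones. With 1 library per condition the difference was not tested.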

How the results depend on the processing

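The counts depended on the pseudocount, the scaling and the limit. With the trimmed mean, a minimum FPKM of 5 or no filter, every count given was within 1.5 times its value, and with median ratios over 23 libraries every count but that of opposite genes (2). With a pseudocount of 0.1, 358 genes were higher in both clone libraries, and 358 under both scalings, 435 were higher in NT-D 2C, 1441 in NT-LW 2C, 3 opposite and 1218 differed between the clones. With a pseudocount of 5 the shared counts were 31 higher and 158 lower (31 and 46 under both scalings), those of NT-D 2C 57 and 163, those of NT-LW 2C 278 and 754, with 0 opposite and 312 between the clones. As deposited, 351 were higher and 93 lower in both, 420 and 123 in NT-D 2C, 2423 and 245 in NT-LW 2C, and 1121 between the clones. With the table scaled to a sum of 1000000, 713 and 83 were shared (351 higher under both scalings), 787 and 116 were called in NT-D 2C, 3358 and 164 in NT-LW 2C, 2 opposite and 1768 between the clones. With a limit of 2, 8 were higher and 24 lower in both (8 and 21 under both scalings), 23 and 30 in NT-D 2C, 146 and 129 in NT-LW 2C, 0 opposite and 56 between the clones. An exact binomial test on fragments (Benjamini-Hochberg adjusted p under 0.005 and fold over 2), which compares these libraries and not the conditions, gave 358 shared higher genes (358 under both scalings), 434 in NT-D 2C, 1477 in NT-LW 2C, 2 opposite and 1264 between the clones. HELLS in NT-LW 2C turned from -1.03 to 0.011 with the sum of 1000000. Of 1692 values of single genes under other settings 911 moved little, 780 moved more and 1 turned, and of 512 list medians 218 moved. Chosen after seeing the data, leaving out the fibroblast list left 116 of the 123 higher genes, and leaving out the mitochondrial, leukocyte, epithelium and interferon lists left 79 of the 93 lower genes. No paired analysis was possible because each condition has 1 library, and no library could be left out for the same reason. Counting depth limits genes with few fragments, and no value here measures the spread between embryos or pools.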
